A study of Mus musculus with 12 samples.

Results

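The AP-1 and BATF transcription factors of B16F10 melanoma cells are described here through 10 genes chosen by symbol: Batf, Batf3, Jun, Junb, Jund, Fos, Fosb, Fosl1, Fosl2 and Atf3. All 10 are in the deposited table of 27503 genes, and all 10 are among the 17590 genes that passed the filter on low counts. The list was drawn up with results of these data in view, above all the difference in Batf between the lines. The values that compare the lines are therefore given for these genes as a description, with no p-value. Counts of these genes past a threshold between the lines, given further below, are likewise a description and not a test.

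B16F10 is a transplantable mouse melanoma line. Its cells carried either wild-type IRF7 or IRF7 with the C435A change, called the mutant below, and RNA was taken with IFNα or as a control. There are 3 libraries in each of 4 groups, named by line and treatment as wild-type or mutant control and wild-type or mutant IFNα. The labels give no dose or time of IFNα, do not say how C435A was introduced or whether the mutant is 1 clone, and name no separate cultures, so the p-values measure a spread among libraries that may be only technical. The level of the mutated gene, Irf7, was 11.6 to 12.8 FPKM (fragments scaled for transcript length and library depth) in wild-type control and 4.44 to 5.20 in mutant control, and averaged over IFNα it was lower in the mutant (log2 −0.93 ± 0.119, adjusted p = 0.00113 in edgeR). A level does not show the C435A change itself.

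AP-1 is a dimer of basic leucine zipper (bZIP) proteins, usually 1 from the JUN family and 1 from the FOS or ATF family, that binds a short DNA palindrome and carries growth factor, stress and MAP kinase signals to the genome. JUN proteins can pair with themselves or with FOS proteins, whereas FOS proteins need a partner. BATF and BATF3 pair with JUN proteins, lack the long activation domain of FOS, and are best known from lymphocytes and dendritic cells, where they bind composite sites together with IRF4 or IRF8. Many of these genes are immediate early genes with short-lived transcripts. In melanoma, AP-1 is known for its part in dedifferentiated, invasive states.

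The sequences upstream of Batf, Junb and Atf3 are shown first. These 3 genes were picked by their edgeR call in the averaged line comparison given below. Junb and Atf3 did not keep that call in every setting tried, and nothing is read from what the 3 sequences share. The sequences are from RefSeq in the build GRCm38.p6 (9 of the 10 genes matched the table, all but Fosl1), each the 250 bases before the annotated start. Batf lies at chr12:85686470-85686719 on the plus strand, Junb at chr8:84978749-84978998 on the minus strand and Atf3 at chr1:191183334-191183583 on the minus strand. Capitals mark TGACG on either strand, the short form of a cyclic AMP response element (CRE), which reads CGTCA on the other strand.
Batf: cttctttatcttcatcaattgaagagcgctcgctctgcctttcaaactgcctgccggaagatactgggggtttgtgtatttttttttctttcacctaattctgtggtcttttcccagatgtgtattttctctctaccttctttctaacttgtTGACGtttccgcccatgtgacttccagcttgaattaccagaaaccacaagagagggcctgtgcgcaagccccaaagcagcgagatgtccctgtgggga
Junb: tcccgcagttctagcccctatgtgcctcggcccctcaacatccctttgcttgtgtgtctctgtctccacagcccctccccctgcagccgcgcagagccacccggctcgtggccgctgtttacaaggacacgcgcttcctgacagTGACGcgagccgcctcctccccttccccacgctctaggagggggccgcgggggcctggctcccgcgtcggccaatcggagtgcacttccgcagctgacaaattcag
Atf3: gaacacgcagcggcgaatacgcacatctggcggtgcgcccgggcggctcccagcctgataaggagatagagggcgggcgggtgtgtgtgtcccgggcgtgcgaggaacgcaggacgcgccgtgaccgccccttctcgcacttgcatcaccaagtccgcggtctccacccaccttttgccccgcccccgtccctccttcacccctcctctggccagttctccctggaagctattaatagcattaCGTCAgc
The short element began 98 bases before the start in Batf, 106 in Junb and 7 in Atf3. It was also present upstream of Fos, at 129 and 66 bases, and of Fosb, at 60 bases, making 5 of 9 genes. Of all 32851 mouse promoters of the same length, 17.8% hold it, and this motif was searched for after the sequences had been read. That share was not matched for GC content, whose median over all promoters was 52.4%. GC content was 46.4% upstream of Batf, 47.6% upstream of Jund and 58.4% to 76% upstream of the other genes. The AP-1 site TGACTCA was found in 0 of the 9 genes (4.46% of all promoters), its form with a free centre TGANTCA in 0 (6.75%) and the full CRE TGACGTCA in 0 (1.55%). The core of the interferon-stimulated response element (ISRE, GAAA repeated after any 2 bases) was matched upstream of Fosl2 (2.98% of all promoters) and a STAT site, TTCNNNGAA, upstream of Batf3 (7.02%). TATAAA was matched upstream of Fos, 33 bases from its start (12.4%), and the CArG box upstream of 0 genes (1.47%). Both strands were searched, TGACTCA is a special case of TGANTCA, and TGACG is contained in TGACGTCA. A match is a string of letters and not a measured site.

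In the plot of FPKM by library, each of the 10 genes can be read in all 12 libraries. Being scaled for length, these levels can be compared between genes.

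**Figure D1:**
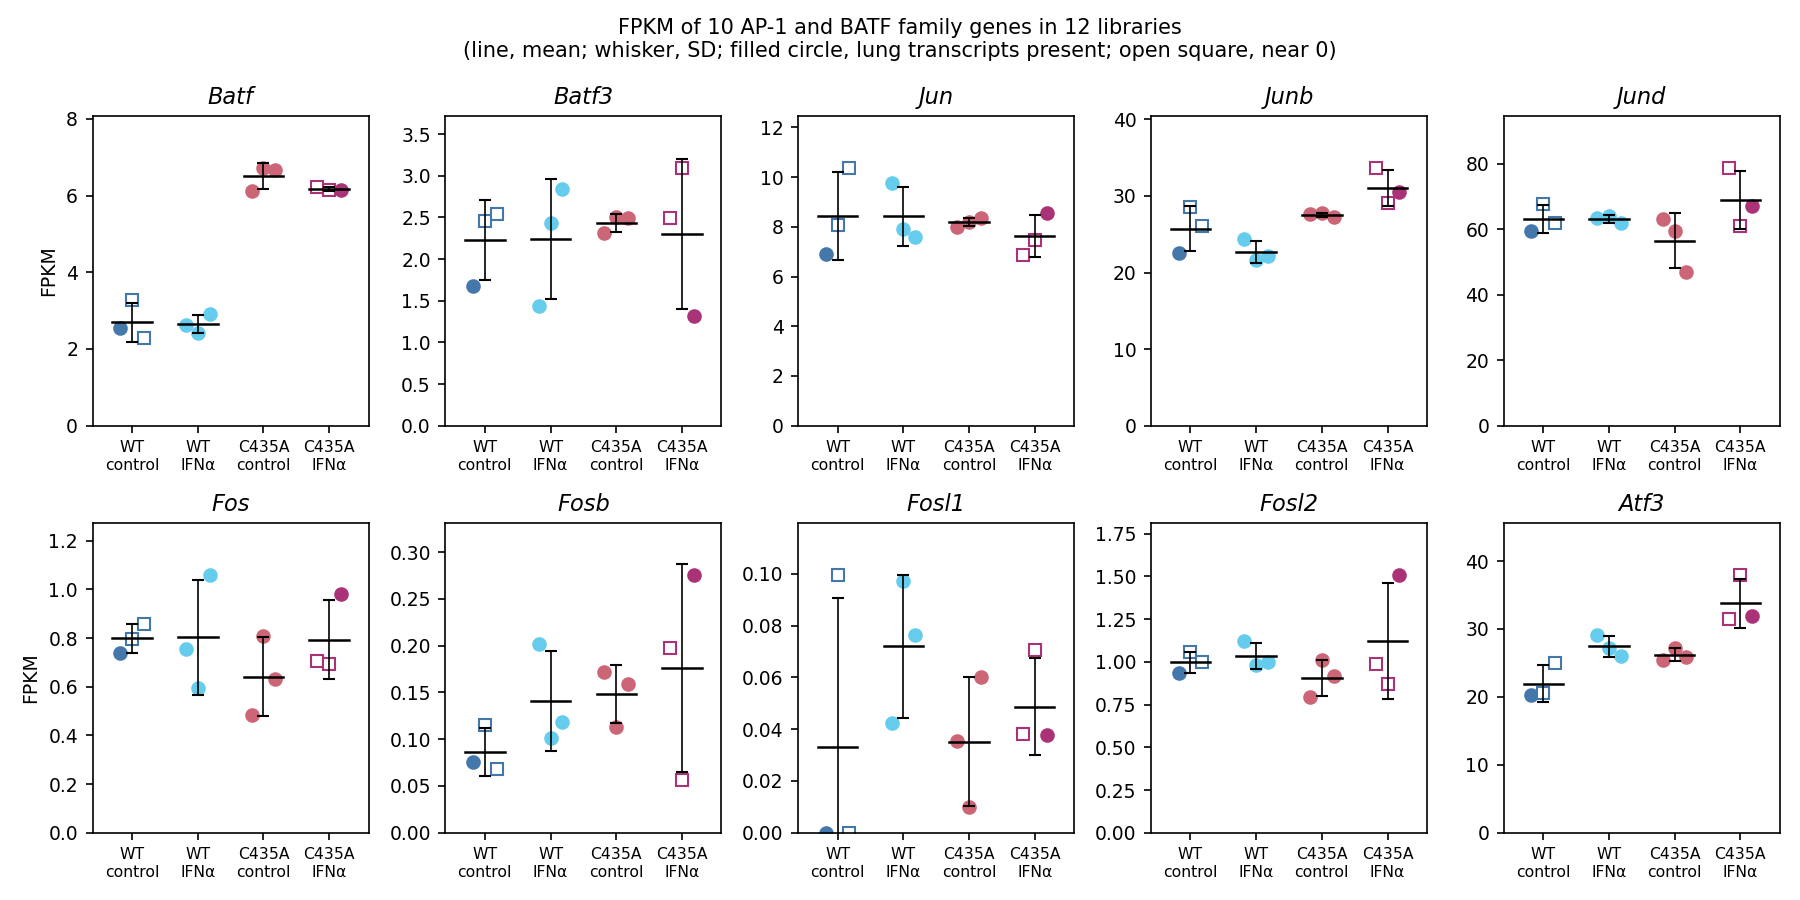
FPKM (linear axes from 0) of the 10 genes in the 12 libraries by group, with the mean as a line and the SD as a whisker (n = 3); filled circles are libraries with lung transcripts, open squares those with almost none. For Batf all 6 mutant libraries (6.11 to 6.72) lie above all 6 wild-type libraries (2.28 to 3.27); no other panel separates the lines in this way.

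The levels ranged widely. In wild-type control cells Jund was highest, at 63.0 ± 4.27 FPKM (SD, n = 3). Junb at 25.7 ± 2.97 and Atf3 at 22.0 ± 2.68 came next and overlapped. Jun followed at 8.45 ± 1.77 FPKM, and then Batf at 2.70 ± 0.511 and Batf3 at 2.23 ± 0.481, which overlapped each other. Fosl2 (0.998 ± 0.0628 FPKM) and Fos (0.798 ± 0.0584) did not overlap in these 3 libraries, but did in the mutant control libraries. Fosb at 0.0863 ± 0.0252 FPKM overlapped Fosl1, which had 0 counts in 2 of the 3 libraries. The JUN genes thus dominated the transcripts: Jun, Junb and Jund summed to 97.2 ± 7.81 FPKM in wild-type control cells, and Fos, Fosb, Fosl1 and Fosl2 to 1.92 ± 0.161. The order of the means was the same in mutant control cells, where Batf, at 6.51 ± 0.340 FPKM in mutant control cells, lay above Batf3 (2.43 ± 0.109) without overlap and below Jun (8.18 ± 0.168). With IFNα the mean of Atf3 was above that of Junb in both lines, at 27.4 ± 1.53 against 22.7 ± 1.47 FPKM in wild-type cells, without overlap, and 33.8 ± 3.61 against 31.1 ± 2.36 in the mutant, with overlap.

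Batf, best known from T cell programmes, was the gene of the 10 with the largest averaged difference between the lines. Its FPKM were 2.55, 3.27 and 2.28 in wild-type control, 2.62, 2.43 and 2.90 in wild-type IFNα, 6.11, 6.72 and 6.68 in mutant control and 6.22, 6.14 and 6.16 in mutant IFNα. The mutant libraries were high and the wild-type libraries low, whether or not IFNα was present. These values rest on 252 to 354 counts per wild-type library and 561 to 670 per mutant library. The mutant exceeded the wild type by 1.36 ± 0.177 on the log2 scale without IFNα (standard error, 95% interval 0.98 to 1.74), or 2.56-fold, and by 1.31 ± 0.177 with IFNα (0.93 to 1.69), or 2.47-fold. Averaged over IFNα the difference was 1.33 ± 0.125 (1.06 to 1.60). Among all genes tested, 8.65% were higher in the mutant without overlap in FPKM without IFNα, 6.47% with IFNα and 1.03% over all 6 against 6 libraries. By mean level Batf stood at rank 6959 of all genes in wild-type control and 4569 in mutant control cells. Relative to its possible partners, Batf amounted to 2.77 ± 0.419% of the summed Jun, Junb and Jund FPKM in wild-type control, 2.81 ± 0.306% in wild-type IFNα, 7.11 ± 0.950% in mutant control and 5.77 ± 0.538% in mutant IFNα.

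IFNα did not detectably change Batf. Its IFNα effect was −0.10 ± 0.173 log2 in the mutant (adjusted p = 0.884, edgeR quasi-likelihood test with Benjamini-Hochberg adjustment over all genes tested). In wild-type cells it was −0.05 ± 0.176 (adjusted p = 0.9997). The 95% intervals allow folds from 0.723 to 1.21 in the mutant and from 0.745 to 1.26 in wild-type cells. The difference between these effects was −0.05 ± 0.247 log2 (interval −0.58 to 0.48, adjusted p = 0.993 for the interaction).

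Batf3, which directs the development of cross-presenting dendritic cells, did not follow Batf. Its FPKM were 1.67, 2.46 and 2.55 in wild-type control, 1.44, 2.43 and 2.84 in wild-type IFNα, 2.31, 2.50 and 2.49 in mutant control and 2.49, 3.09 and 1.31 in mutant IFNα. Low and high libraries occurred in both lines, and all 4 groups overlapped. The averaged line difference was 0.17 ± 0.218 log2 (−0.30 to 0.64), and the averaged IFNα effect was −0.05 ± 0.218 (adjusted p = 0.973 in edgeR).

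Among the JUN genes, Junb, usually a weaker activator than Jun that can oppose it, had the largest averaged difference between the lines. Its FPKM were 22.6, 28.5 and 26.1 in wild-type control, 24.4, 21.6 and 22.1 in wild-type IFNα, 27.6, 27.7 and 27.3 in mutant control and 33.7, 29.1 and 30.5 in mutant IFNα. The mutant libraries lay above the wild type without overlap in the presence of IFNα and within its range in its absence. The line difference was 0.20 ± 0.109 log2 without IFNα (−0.04 to 0.43), 0.55 ± 0.110 with IFNα (0.31 to 0.78) and 0.37 ± 0.0773 averaged (0.21 to 0.54). Over 12 fits that each left out 1 library it was 0.48 to 0.61 with IFNα and 0.34 to 0.43 averaged. The IFNα effect on Junb was 0.15 ± 0.109 log2 in the mutant (adjusted p = 0.656) and −0.20 ± 0.109 in wild-type cells (adjusted p = 0.966), and the interaction was 0.35 ± 0.155 (unadjusted p = 0.0389, adjusted p = 0.916). The interval of Junb in the table overlaps the peroxiredoxin gene Prdx2 on the opposite strand, which was at a mean of 142 FPKM and differed by 0.18 log2 between the lines. Whether counting used strand is not given in the sources used here, so the reads of the pair cannot be told apart.

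Jun, the founding member and the strongest activator of its family, ranged from 6.89 to 10.4 FPKM in wild-type control, 7.59 to 9.77 in wild-type IFNα, 8.01 to 8.34 in mutant control and 6.89 to 8.55 in mutant IFNα. The groups overlapped. Its averaged line difference was 0.01 ± 0.0899 log2 (−0.18 to 0.20), which changed sign with scaling by library totals and with limma on FPKM, and its averaged IFNα effect −0.07 ± 0.0899 (adjusted p = 0.857). Jund, which is expressed steadily in resting cells, ranged from 59.4 to 67.7, 61.9 to 64.1, 46.9 to 63.0 and 61.1 to 78.7 FPKM in the same order of groups. Its averaged line difference was 0.08 ± 0.0962 log2 (−0.13 to 0.28), which likewise changed sign with library totals and limma, and its averaged IFNα effect 0.13 ± 0.0962 (adjusted p = 0.727). The interval of Jun overlaps Junos on the opposite strand, at a mean of 0.122 FPKM, and that of Jund overlaps Gm11175, at 0.0653.

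The FOS genes were near the bottom of the range. Fos, the classical immediate early gene, had FPKM of 0.740, 0.797 and 0.857 in wild-type control, 0.753, 0.596 and 1.06 in wild-type IFNα, 0.485, 0.808 and 0.631 in mutant control and 0.707, 0.695 and 0.979 in mutant IFNα. Every group overlapped every other. The averaged line difference of Fos was −0.07 ± 0.196 log2 (−0.49 to 0.35) and its averaged IFNα effect 0.14 ± 0.196 (adjusted p = 0.872). Fosl2, which encodes FRA2, ranged from 0.795 to 1.51 FPKM over the 12 libraries, with its highest value in mutant IFNα 3. Its averaged line difference was 0.09 ± 0.135 log2 (−0.20 to 0.38), with the opposite sign in limma, and its averaged IFNα effect 0.16 ± 0.135 (adjusted p = 0.760). Fosb, a close relative of Fos, had 28 to 114 counts and 0.0564 to 0.276 FPKM, with both the lowest and the highest value in mutant IFNα. Its averaged line difference of 0.65 ± 0.344 log2 had an interval from −0.09 to 1.38, or folds of 0.939 to 2.61, and a difference was not detectable at this depth. Fosl1, which encodes FRA1 and is known from invasive tumours, had 92 counts over the 12 libraries, 0 to 16 in each and 0 in wild-type control 1 and 3. No fold change is given for it, and its interval overlaps Ccdc85b on the opposite strand, at 10.9 FPKM.

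Atf3, a stress-induced bZIP factor that pairs with JUN proteins and often represses, was higher in the mutant in each condition and higher with IFNα in each line. Its FPKM were 20.3, 20.6 and 25.0 in wild-type control, 29.1, 27.2 and 26.0 in wild-type IFNα, 25.4, 27.2 and 25.9 in mutant control and 31.5, 38.0 and 32.0 in mutant IFNα. Wild-type control was the lowest group and mutant IFNα the highest, each apart from the other 3 groups, while wild-type IFNα and mutant control overlapped. The line difference was 0.36 ± 0.0999 log2 without IFNα (0.15 to 0.57), 0.39 ± 0.0997 with IFNα (0.18 to 0.61) and 0.38 ± 0.0706 averaged (0.22 to 0.53). The averaged value was 0.34 to 0.40 over the fits without 1 library. IFNα gave 0.31 ± 0.0998 log2 in the wild type (unadjusted p = 0.00758, adjusted p = 0.673), and 0.34 ± 0.0998 in the mutant (unadjusted p = 0.00404, adjusted p = 0.333) in edgeR. No overlap in FPKM with higher values under IFNα was seen for 9.75% of all genes in the mutant and 4.77% in wild-type cells. Averaged over the lines the IFNα effect was 0.33 ± 0.0706 (adjusted p = 0.0960 in edgeR), with adjusted p from 0.0850 to 0.253 when 1 library was left out, and DESeq2 called it (adjusted p = 0.00126). The interaction for Atf3 was 0.03 ± 0.141 log2 (adjusted p = 0.992).

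**Figure D2:**
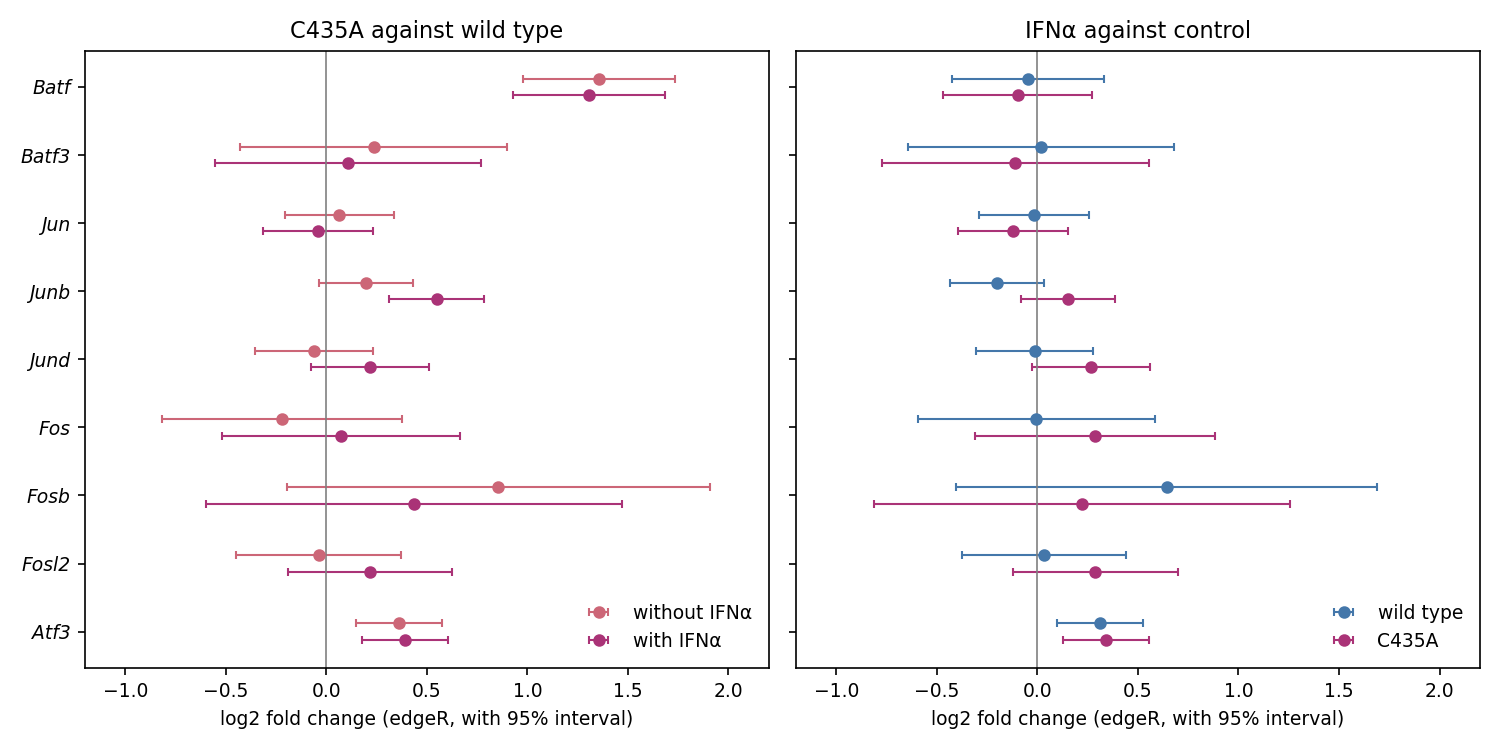
Log2 fold change from edgeR with its 95% interval (horizontal axis) for 9 of the 10 genes, Fosl1 being left out for its low counts. Left, mutant against wild type, where Batf stands apart at 1.36 without and 1.31 with IFNα; right, IFNα against control, where the Batf points are at −0.05 and −0.10 and those of Atf3 at 0.31 and 0.34.

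Counted over the 10 genes, 1 passed the threshold of 0.05 on the adjusted p between the lines without IFNα (Batf; 0.165% of all genes tested passed), 2 with IFNα (Batf and Junb; 0.597%) and 3 averaged over IFNα (Batf, Junb and Atf3; 2.8%), all higher in the mutant. Because the genes were chosen with these comparisons in view, nothing is read from those shares. Junb fell out of the count with IFNα in 9 of the 12 fits without 1 library (any wild-type IFNα, mutant control or mutant IFNα library) and out of the averaged count in 8 of 12 (wild-type control 3, mutant IFNα 1 or any wild-type IFNα or mutant control library). Junb and Atf3 both fell out of the averaged count with library totals and with limma. For IFNα, edgeR called 0 of 10 in the wild type (0.0227% of all genes passed), 0 in the mutant (0.00569%), 0 averaged over the lines (0.171%) and 0 in the interaction (0% passed). In each of these 4 comparisons 1 of the 10 had an unadjusted p under 0.05: Junb in the interaction and Atf3 in the other 3. The share of all genes with an unadjusted p under 0.05 was 5.44%, 10.3%, 10.2% and 5.17% in the same order. DESeq2 called 0, 0, 1 and 0, and limma on log2(FPKM + 1) called 0 in each among the 7 genes it tested. The median IFNα effect of the 10 genes was 0.01 log2 in the wild type, 0.25 in the mutant and 0.13 averaged, where the median of all genes was 0.02, −0.01 and 0.00. The median line difference was 0.22 without IFNα, 0.22 with IFNα and 0.13 averaged, against 0.00, −0.01 and −0.00109 over all genes.

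Several of the 10 genes lie close together. In the deposited coordinates, Fos, Jdp2 and Batf follow each other on the plus strand of chromosome 12, Fos starting 213 kb and Jdp2 87.6 kb before Batf at 85733443. The lower coordinates of Batf3 (plus strand) and Atf3 (minus strand) are 72.4 kb apart on chromosome 1. Distances in this paragraph use the lower coordinate of each gene on either strand, which for a minus-strand gene is its far end. The submitters' notes name GRCm38, but the deposited starts differ from those of that build's annotation, so these positions are given as deposited. Jdp2, a bZIP repressor that pairs with JUN, was the only 1 of the 13 other genes tested within 500 kb of Batf to pass the threshold between the lines. Its FPKM were 10.5, 10.8 and 13.2 in wild-type control, 13.4, 12.4 and 10.9 in wild-type IFNα, 13.5, 13.2 and 11.7 in mutant control and 14.7, 16.2 and 23.1 in mutant IFNα. The last group was apart from the rest and held 1 high library, mutant IFNα 3. The averaged line difference of Jdp2 was 0.46 ± 0.107 log2 (adjusted p = 0.0384 in edgeR). It was kept in 3 of 12 fits without 1 library, those without a mutant IFNα library, with log2 0.34 to 0.52 and adjusted p from 0.0258 to 0.102 over the 12. Near Batf3 and Atf3, D730003I15Rik was 0.67 ± 0.134 log2 higher in the mutant (adjusted p = 0.0173, in 10 of 12 such fits, lost without wild-type IFNα 1 or mutant control 3). Over all 226 genes tested within 500 kb of any of the 10, 8 were called higher and 0 lower in the averaged line comparison, where 2.8% of all genes were called in either direction.

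**Figure D3:**
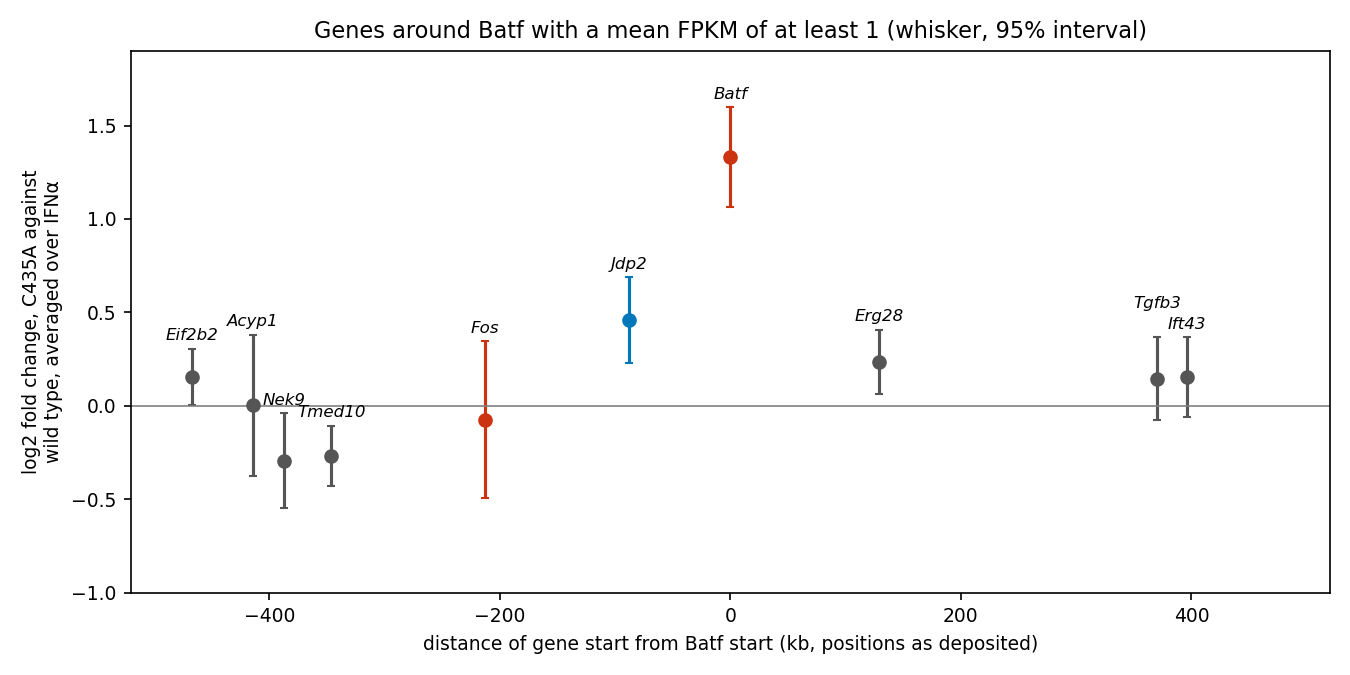
Averaged line difference on the log2 scale with its 95% interval (vertical axis) for Batf, Fos and the neighbours with a mean FPKM of at least 1, by distance of their starts (lower coordinate on either strand) from that of Batf in kb (red, Batf and Fos; blue, the called neighbour; grey, not called). Batf lies at 1.33 and Jdp2 at 0.46, while the other 8 points are between −0.29 and 0.24.

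Of 37 other bZIP factors 33 were tested, and edgeR called 1 for IFNα averaged over the lines (0.171% of all genes) and 2 between the lines averaged over IFNα (2.8%). Ddit3, which encodes the stress factor CHOP, fell by 0.58 on the log2 scale with IFNα averaged over the lines (± 0.0900, adjusted p = 0.0310 in edgeR, kept in 5 of 12 fits without 1 library, adjusted p 0.0395 to 0.115) and was 0.36 ± 0.0898 higher in the mutant (adjusted p = 0.0464, kept in 2 of 12, log2 0.30 to 0.40). Its mean FPKM were 145.9 in wild-type control, 96.8 in wild-type IFNα, 172 in mutant control and 119 in mutant IFNα. Ddit3 has a second row in the table with almost no counts, which was kept apart. Jdp2 was the other gene called between the lines. The list's median was 0.11 log2 for IFNα and 0.04 for the line, both averaged. Batf2, the BATF paralogue induced by interferons in macrophages, was at 3.89 ± 0.703 FPKM in wild-type control, 5.18 ± 0.612 in wild-type IFNα, 2.98 ± 0.0617 in mutant control and 5.98 ± 2.23 in mutant IFNα. Its averaged IFNα effect of 0.69 ± 0.154 log2 had an adjusted p of 0.109 in edgeR, above the threshold, and of 0.00357 in DESeq2. With lung-holding libraries only the averaged IFNα effect of Batf2 was log2 1.07, with 1 wild-type control and 1 mutant IFNα library left. That mutant library, mutant IFNα 3 at 8.55 FPKM, was the highest of the 12. The IRF partners of BATF were barely measured: Irf4 had 0 to 26 counts per library, 0 in 5 of them, and Irf8 had 45 to 96, or 0.0764 to 0.203 FPKM.

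Of 34 MAP kinase cascade genes tested, from the RAS genes to the ternary complex factors, 0 passed between the lines in edgeR in the averaged comparison, where 1 was higher and 4 lower at an unadjusted p under 0.05, as were 18.1% of all genes in either direction. DESeq2 called 3 of the 34, and 1185 of all genes, and limma called 2, and 397 of all genes. Mapk11, which encodes p38β, rose with IFNα averaged over the lines by 1.03 ± 0.172 log2 (adjusted p = 0.0356, kept in 2 of 12 fits without 1 library, adjusted p 0.0178 to 0.117). It went from 0.656 ± 0.0164 to 1.27 ± 0.136 FPKM in the wild type and from 0.520 ± 0.188 to 1.15 ± 0.156 in the mutant, on 67 to 304 counts per library. Of 19 MAP kinase feedback genes, which mirror the activity of the cascade, 0 passed in any comparison with edgeR, DESeq2 or limma, and at most 2 had an unadjusted p under 0.05. Dusp6 ranged from 3.96 to 8.57 FPKM and Dusp1 from 2.35 to 4.13, with smallest adjusted p over the 7 comparisons of 0.406 and 0.398. Of 25 other immediate early genes 0 passed in edgeR in any comparison. In the averaged line comparison 4 were higher and 1 lower in the mutant at an unadjusted p under 0.05 (18.1% of all genes). There DESeq2 called 1 and limma 0. Of the 25, 21 had a higher value in the mutant in that comparison, with a median of 0.17 log2 against −0.00109 over all genes. Egr1 ranged from 0.144 to 0.913 FPKM, with means of 0.214 ± 0.0735 in wild-type control, 0.549 ± 0.214 in wild-type IFNα, 0.452 ± 0.0908 in mutant control and 0.539 ± 0.325 in mutant IFNα, and Myc from 3.46 to 5.52.

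Among 35 known AP-1 targets tested, 1 passed in edgeR between the lines averaged over IFNα, where 2.8% of all genes did. It was Vim, the intermediate filament gene vimentin, which fell by 0.41 on the log2 scale in the mutant (± 0.0917, adjusted p = 0.0295, kept in 4 of 12 fits without 1 library, adjusted p 0.0247 to 0.0874). All 6 mutant libraries (87.6 to 113 FPKM) were below all 6 wild-type libraries (125 to 180), as were those of 1.69% of all genes tested. Of the other 34, 6 were higher and 5 lower at an unadjusted p under 0.05 (18.1% of all genes), and the list's median was 0.06. DESeq2 called 5 of the 35 (Vim, Cd44, Hmox1, Tgfb1 and Cxcl2), and 1185 of all genes, and limma called 2, and 397 of all genes. Of 7 genes tested that depend on BATF in lymphocytes or dendritic cells, 0 passed in any comparison with edgeR, DESeq2 or limma, and 1 was higher in the mutant, averaged, at an unadjusted p under 0.05. Among 9 JAK-STAT genes, Irf1, a primary interferon target, rose with IFNα by 0.71 ± 0.0984 log2 in wild-type cells (adjusted p = 0.0202) and by 0.69 ± 0.0695 averaged (adjusted p = 0.00171), and was 0.43 ± 0.0693 higher in the mutant (adjusted p = 0.00583). Both averaged calls were kept in 12 of 12 fits without 1 library, but the call between the lines was lost with library totals (adjusted p = 0.0679) and in the 3 limma fits (0.0537 to 0.0939). Irf1 had the clearest IFNα response of the lists, with 7.58 to 11.2 FPKM in control and 12.4 to 17.5 in IFNα libraries.

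**Figure D4:**
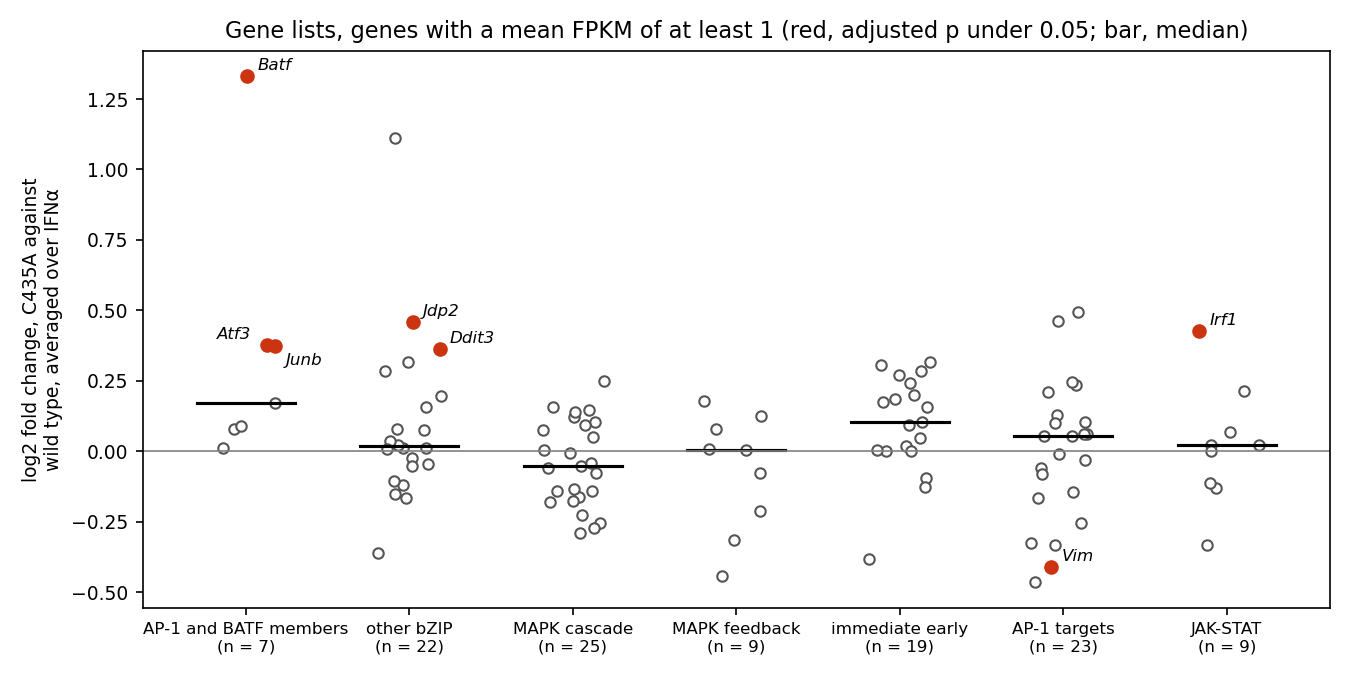
Averaged line difference on the log2 scale (vertical axis) for the genes of each list with a mean FPKM of at least 1 (number in brackets), red where the adjusted p was under 0.05, with the median as a bar. Batf at 1.33 is the highest called gene. Cebpb at 1.11, picked out here after its value was seen, was not called in edgeR (adjusted p = 0.0662) but was called in DESeq2.

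The genes most like Batf over the 12 libraries, by Pearson correlation of log2 CPM among 8205 genes, were Nqo1 (r = 0.952), Exoc3l4 (0.949), Ptpn18 (0.949), Atp5j (0.944), Mcrip2 (0.943) and Epb41l4aos (0.943). The 12 libraries fall into 2 lines that differ in Batf, and each of the 6 genes was also higher in the mutant in both conditions. Nqo1, a quinone reductase, had the greatest such difference of the 6, from a mean of 0.748 FPKM in wild-type control to 6.82 in mutant control. Among the 10 genes themselves Batf was most like Junb (r = 0.865), Atf3 was most like Batf (0.659) and Fos most like Fosl2 (0.659). Batf3 reached at most 0.287, with Batf. These values describe libraries that share lines and treatments.

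The cells and libraries were checked against marker genes. Melanocyte markers summed to 7440 to 9960 CPM in every library, with Pmel, Dct and Tyrp1 highest, while Oca2 was at 0 in 2 libraries, Kit in 3 and Ednrb in 1. Of the 13 melanocyte markers, 12 had a lower value in the mutant in the averaged comparison (median log2 −0.30, 7 at an unadjusted p under 0.05, where 18.1% of all genes were). Of these edgeR called Gpr143 (−0.37 ± 0.0912, adjusted p = 0.0478, kept in 1 of 12 fits without 1 library) and Trpm1 (−0.34 ± 0.0798, adjusted p = 0.0381, kept in 4 of 12). Mitf ranged from 3.00 to 5.88 FPKM. Lung epithelial markers, not made by melanoma cells, summed to at least 46.1 CPM in 8 libraries (wild-type control 1, all wild-type IFNα, all mutant control and mutant IFNα 3) and to at most 0.324 CPM in the other 4. In the 4 libraries with almost none, Batf was 3.27 and 2.28 FPKM in wild-type control and 6.22 and 6.14 in mutant IFNα. Line and treatment go together in these 4 libraries and cannot be told apart. With the 8 others alone, the line difference of Batf was 1.38 ± 0.232 log2 without IFNα, where 1 wild-type library was left. With IFNα it was 1.32 ± 0.201, where 1 mutant library was left. Leukocytes express Batf. Of 22 leukocyte markers 17 were tested and 0 passed in any comparison in edgeR. Averaged over IFNα, 16 of the 17 had a higher value in the mutant, as Batf did (median log2 0.44). Of these 7 had an unadjusted p under 0.05 in edgeR, where 18.1% of all genes did in either direction. DESeq2 called 2 of the 17, and 1185 of all genes, and limma called 0. The median was 0.83 without IFNα and 0.19 with IFNα. Ptprc, their common marker, was at 0.133 to 0.259 FPKM. Cd3e was at 0 in 9 libraries and Ms4a1 in 10. Other leukocyte markers were well above 0 in every library, with Lyz2 at 22.5 to 56.8 FPKM, Cd68 at 9.4 to 14.7 and C1qb at 4.66 to 8.11. The summed level of the leukocyte markers was 94.5 to 140 CPM in wild-type control and 155 to 173 in mutant control. It was 94.7 to 136 in wild-type IFNα and 96.0 to 137 in mutant IFNα. The 15 fibroblast and endothelial markers summed to 38.8 to 44.9 CPM in wild-type control and 68.2 to 74.1 in wild-type IFNα. Their sum was 47.7 to 80.6 CPM in mutant control and 35.4 to 92.2 in mutant IFNα. Averaged over IFNα, 12 of the 14 tested had a higher value in the mutant (median log2 0.33), and edgeR called 0. The part of leukocyte, lung, fibroblast or endothelial transcripts in the differences of Batf and the other genes was not tested. In bulk RNA, a change in the number of cells of a type and a change in RNA per cell cannot be told apart.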

How the data were processed

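Poly(A) RNA libraries, stranded by dUTP and with molecular identifiers in their adapters per the labels' protocols, were made from 12 samples grouped by their labels. GRCm38, edgeR, DESeq2, StringTie 1.3.4d, UMI-tools, HISAT2 2.0.4 and cutadapt 1.9 appear in the submitters' processing notes. Not given in the sources used here are their roles, the annotation, strand use and duplicate removal. The authors deposited a count per gene and library, not scaled for depth (totals 60511573 to 75927461), and FPKM scaled by the authors for length and depth, per the file headers. Totals were lowest in mutant control (62349499 to 63898023) and mutant IFNα 3 (60511573), and at least 71529862 in all other libraries. Depth thus differed between the lines, most of all without IFNα. Multiples of 4 made up 33.6% of values between 1 and 30, against 23.3% of the whole numbers in that range. How fragments became counts is unknown, so a count may not be 1 fragment.

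edgeR 4.0.16 (R 4.3.3) was run on the counts with TMM scaling, its default low-count filter and 1 quasi-likelihood fit of 4 group means over 12 libraries (common biological coefficient of variation 28.9%), tested on simulated data beforehand. The 7 comparisons were IFNα in each line and averaged, mutant against wild type without, with and averaged over IFNα, and the interaction of line and treatment. All were two-sided and adjusted by Benjamini-Hochberg over 17590 genes at 0.05. Standard errors were worked back from the log2 fold change and the F statistic of the same fit, and the 95% intervals from these. Both are approximate, most of all at low counts. Alternatives were DESeq2 1.42.0, its size factors, library totals, no filter, robust estimation, limma 3.58.1 on log2(FPKM + 1) or (FPKM + 0.1), a replicate block, a term for lung transcripts (10 CPM or more), libraries with lung transcripts only, and each library left out. The lung-holding libraries alone left 1 library in wild-type control and 1 in mutant IFNα.

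The genes, lists and tests were chosen with earlier results of these data known. By rule, all 10 genes are named, with up to 4 called genes per list and comparison, 11 fixed genes, and the 6 genes most like Batf. Genes near the 10 were named where called around Batf, Batf3 or Atf3.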

Additional observations from a re-analysis of the deposited data

How the results depend on the processing

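Of 1096 values recomputed for the named genes, 918 kept their direction and side of the threshold, 131 lost a call, 9 gained one and 38 changed sign. Over the fits without 1 library the Batf line difference was log2 1.19 to 1.54 without IFNα, 1.25 to 1.41 with IFNα and 1.24 to 1.42 averaged. Over the 11 other settings it was 1.03 to 1.38, 0.98 to 1.32 and 1.003 to 1.35. Of these 11 settings, the averaged line call was kept in 5 for Jdp2, 4 for Ddit3, 9 for Vim, 7 for Gpr143, 9 for Trpm1, 10 for D730003I15Rik and 7 for Irf1, and the averaged IFNα call in 8 for Ddit3, 7 for Mapk11 and 11 for Irf1. The replicate block ended the calls of Jdp2, Ddit3 (both), Vim, Gpr143, Trpm1 and Mapk11.

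The number of the 10 genes called moved as follows. Between the lines without IFNα it was 2 with DESeq2 and 0 with lung-holding libraries only. With IFNα it was 1 with library totals, no filter, the 3 limma fits, the replicate block and the lung term, and 1 to 2 with 1 library left out. Averaged over IFNα it was 1 with library totals and with the 3 limma fits, and 2 to 3 with 1 library left out. For IFNα it was 1 with DESeq2 averaged over the lines and 1 in the mutant with lung-holding libraries only. The cause was not tested. Over all genes tested, edgeR called 29, 105 and 493 between the lines (without IFNα, with IFNα, averaged) and 4, 1, 30 and 0 for IFNα (wild type, mutant, averaged, interaction), and DESeq2 called 240, 599 and 1185 and 65, 145, 267 and 14. The same replicate number did not pair the samples (correlation −0.407 to 0.338 over 18 pairs, 9 over 0.1; 4 of 12 libraries correlated best with their own number), and the block moved the calls over all genes in the order above to 17, 59 and 314 and to 2, 0, 7 and 0.

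Signs that changed belong to differences near 0. The averaged line difference of Jun was −0.0808 with library totals, −0.0735 in limma with a pseudocount of 1, filtered or not, and −0.0806 with 0.1. Jund was at −0.00493 with library totals, −0.0236 in limma with a pseudocount of 1 and −0.0242 with 0.1. Fosl2 was at −0.00875 and −0.0261 in the same limma fits. With lung-holding libraries only, Batf3 was at −0.0511 and Fos at 0.10 for the line, and Jun at 0.13 and Junb at 0.0336 for IFNα averaged. Junb was at 0.00169 for averaged IFNα with library totals. The Atf3 interaction was −0.0757 with the lung term and −0.0798 with lung-holding libraries only. With 1 library left out, the ranges were −0.20 to 0.14 for Batf with IFNα in the wild type, −0.24 to 0.11 for its interaction and −0.15 to 0.0207 for its averaged IFNα effect, −0.0445 to 0.0751 for the Atf3 interaction, and −0.0569 to 0.0306 for Junb, −0.17 to 0.0902 for Batf3 and −0.00239 to 0.24 for Fos in averaged IFNα. For the averaged line difference they were −0.0395 to 0.0555 for Jun, −0.17 to 0.0688 for Fos and −0.0527 to 0.17 for Fosl2.

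For Batf3, Jun, Jund, Fos, Fosb and Fosl2 the alternatives cover the averaged comparisons, and Fosl1 was given none. Low counts limit Fosb, Fosl1, Irf4 and Irf8.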
